A study of Mus musculus with 12 samples.

Results

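The genes described here encode 8 regulators of histone H3 lysine 9 (H3K9) methylation and heterochromatin: the methyltransferase genes Suv39h1 and Ehmt2, the demethylase genes Kdm4a and Kdm4b, the reader gene Cbx5, the corepressor gene Trim28, and Uhrf1 and Dnmt1, which act in the maintenance of DNA methylation. They were taken by gene symbol from a deposited table of 2281 genes, and all 8 were present and passed the filter on low values. The RNA-seq data came from GC1, an established mouse line labelled as spermatogonia cells, and comprised 12 libraries in 4 groups of 3 libraries, all labelled 24 h. The groups were wild type, Ythdf2-ko (knockout of the gene for an m6A reader protein), Ythdf2-ko-OE-CTR (the knockout with an overexpression control) and Ythdf2-koOE-setdb1 (the knockout with overexpression of Setdb1, itself an H3K9 methyltransferase gene). The 9 knockout libraries all carry the line code YC5, and what losing Ythdf2 does cannot be told apart from whatever else separates that line from wild type. The labels name neither the edited site, nor the vectors, nor whether the line is 1 clone. They do not say whether libraries of a group came from separate cultures, so p-values measure the spread between these libraries, which may be technical.

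Methylation of H3K9 marks silent chromatin. SUV39H1 writes the trimethyl form at repeats near centromeres, EHMT2 (G9a) writes mono- and dimethyl forms in euchromatin, and SETDB1 is brought to its targets by TRIM28 (KAP1), which binds zinc finger repressors. CBX5 (HP1 alpha) reads the mark and compacts chromatin, while KDM4A and KDM4B remove it. UHRF1 binds methylated H3K9 and hemimethylated DNA at replication forks and recruits DNMT1, which copies DNA methylation to the new strand.

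The table was a preselected set, since each of its 2281 genes bears a mark of significance in the authors' deposited table, and no header says which groups that mark compares. In the authors' deposited table the members ranked from 74 (Uhrf1) to 1925 (Kdm4b) by p-value. Percentages of changed genes below refer to that set alone. Of the submitters' target terms, chromatin organization was attached to 7 of the 8 members, the exception being Cbx5, and DNA repair to 2, Trim28 and Uhrf1. Values are FPKM (fragment counts divided by transcript length in kilobases and by the library's mapped fragments), and differences are on the log2(FPKM + 1) scale, tested with limma over 2063 genes at a Benjamini-Hochberg adjusted p under 0.05. Read depth is unknown. The targeted gene Ythdf2 was lower but present in the knockout, at 9.0 ± 0.43 FPKM in wild type and 6.05 ± 0.244 in Ythdf2-ko (SD, n = 3 each). Ythdf2 was also lower with Setdb1 overexpression, at 4.63 ± 0.383 FPKM, than in its control, at 6.14 ± 0.103 FPKM (-0.34, adjusted p = 0.000189), and the part of this in the members' differences was not tested. The overexpression of Setdb1 is known from the labels alone, since that gene was not analysed here. Of 22 spermatogonial markers 5 were in the table, with a sum of 118 to 119 FPKM in wild type and 71.3 to 86.4 FPKM in the knockout groups, and the defining germ cell genes among the others were not analysed here. Blood cell transcripts were present in wild-type libraries 2 and 3 and Ythdf2-ko libraries 1 and 2: 10 of 24 fixed markers were in the table, and their sum reached 547 FPKM in wild type and 638 FPKM in Ythdf2-ko, against at most 2.28 FPKM in the 6 overexpression libraries. Comparisons that use wild type or Ythdf2-ko are given with and without these 4 libraries where a call depends on them.

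Promoter sequences are shown for 3 members that moved differently, Uhrf1 and Dnmt1, which were lower in the knockout, and Trim28, which was higher. They run from 250 bases before to 50 bases after a start site and are from RefSeq, build GRCm38.p6. For genes with several start sites the one with a match is shown. Capitals mark words of the E2F motif, which is bound by the E2F family of cell cycle transcription factors, searched on both strands as TTTCCCGC, TTTGGCGC or TTTCGCGC.
Uhrf1 chr17:56304063-56304362, plus strand: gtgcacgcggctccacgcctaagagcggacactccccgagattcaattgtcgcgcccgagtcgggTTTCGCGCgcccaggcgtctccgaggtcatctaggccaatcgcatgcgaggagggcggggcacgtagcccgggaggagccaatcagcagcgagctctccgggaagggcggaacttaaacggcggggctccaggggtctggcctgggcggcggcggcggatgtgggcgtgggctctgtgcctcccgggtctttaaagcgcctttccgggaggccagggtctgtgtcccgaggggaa
Dnmt1 chr9:20952574-20952873, minus strand: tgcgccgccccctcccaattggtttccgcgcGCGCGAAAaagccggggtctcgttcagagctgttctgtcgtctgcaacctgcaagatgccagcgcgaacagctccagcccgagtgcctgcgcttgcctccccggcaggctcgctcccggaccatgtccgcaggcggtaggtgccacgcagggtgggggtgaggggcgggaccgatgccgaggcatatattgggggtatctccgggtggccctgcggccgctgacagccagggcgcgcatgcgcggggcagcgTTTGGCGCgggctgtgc
Trim28 chr7:13023902-13024201, plus strand: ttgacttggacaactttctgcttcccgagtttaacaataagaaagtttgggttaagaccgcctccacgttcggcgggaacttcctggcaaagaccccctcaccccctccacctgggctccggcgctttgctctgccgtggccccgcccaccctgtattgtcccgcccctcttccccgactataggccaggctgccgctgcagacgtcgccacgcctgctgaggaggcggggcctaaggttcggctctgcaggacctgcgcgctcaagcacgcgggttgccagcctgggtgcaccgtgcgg
RefSeq promoters were found for 7 of the 8 members, with 13 start sites in all. An E2F word stood in 2 of these 13, those printed for Uhrf1 and Dnmt1, against 1.84% of all 32851 promoters of the same length and 5.03% of the 2106 promoters of tested genes. No E2F word stood in the promoters of Cbx5, Suv39h1 and Ehmt2, which also fell in Ythdf2-ko. The other start sites of Uhrf1 and Dnmt1 held none either, so the printed sequences do not show that the word goes with the direction of change. Of 38 promoters of genes in the mitosis and replication lists used below, 8 held it (21.1%). The Uhrf1 promoter held 1 word, which began 185 bases before the start site, and the Dnmt1 promoter held 2, of which 1 lay upstream and 1 began 33 bases after it. The sequence CCAAT, read on both strands, was in 7 of the 13, against 37.4% of all promoters and 38.7% of those of tested genes. The sequence TTTGAA, the core of the cell cycle homology region (CHR), was in 1 of the 13, an upstream Dnmt1 start site, against 17.9% of all promoters and 13.1% of those of tested genes. A match is a description of the letters and not evidence of binding.

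In Ythdf2-ko against wild type, the maintenance and reader genes were lower, led by Uhrf1, and Trim28 was higher. This comparison asked what differed in cells with the m6A reader gene knocked out. Of the 8 members, 6 fell and 1 rose, where 77.3% of all tested genes changed, 39.5% downward and 37.8% upward. In these bulk libraries, fewer cells with a transcript and less of it per cell cannot be told apart. The groups did not overlap for any of the 8, nor for 79.9% of tested genes. Both shares of members are to be read against those of the table. The median difference was -0.18 over the members and -0.01 over all tested genes, among which rises and falls offset each other. Regardless of direction, the median size was 0.24 over the members and 0.26 over all tested genes. By size the members ranked from 171 (Uhrf1) to 1872 (Ehmt2) of the 2063 tested genes. The levels in each library are plotted by group, and the differences with their intervals follow in a separate plot.

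**Figure D1:**
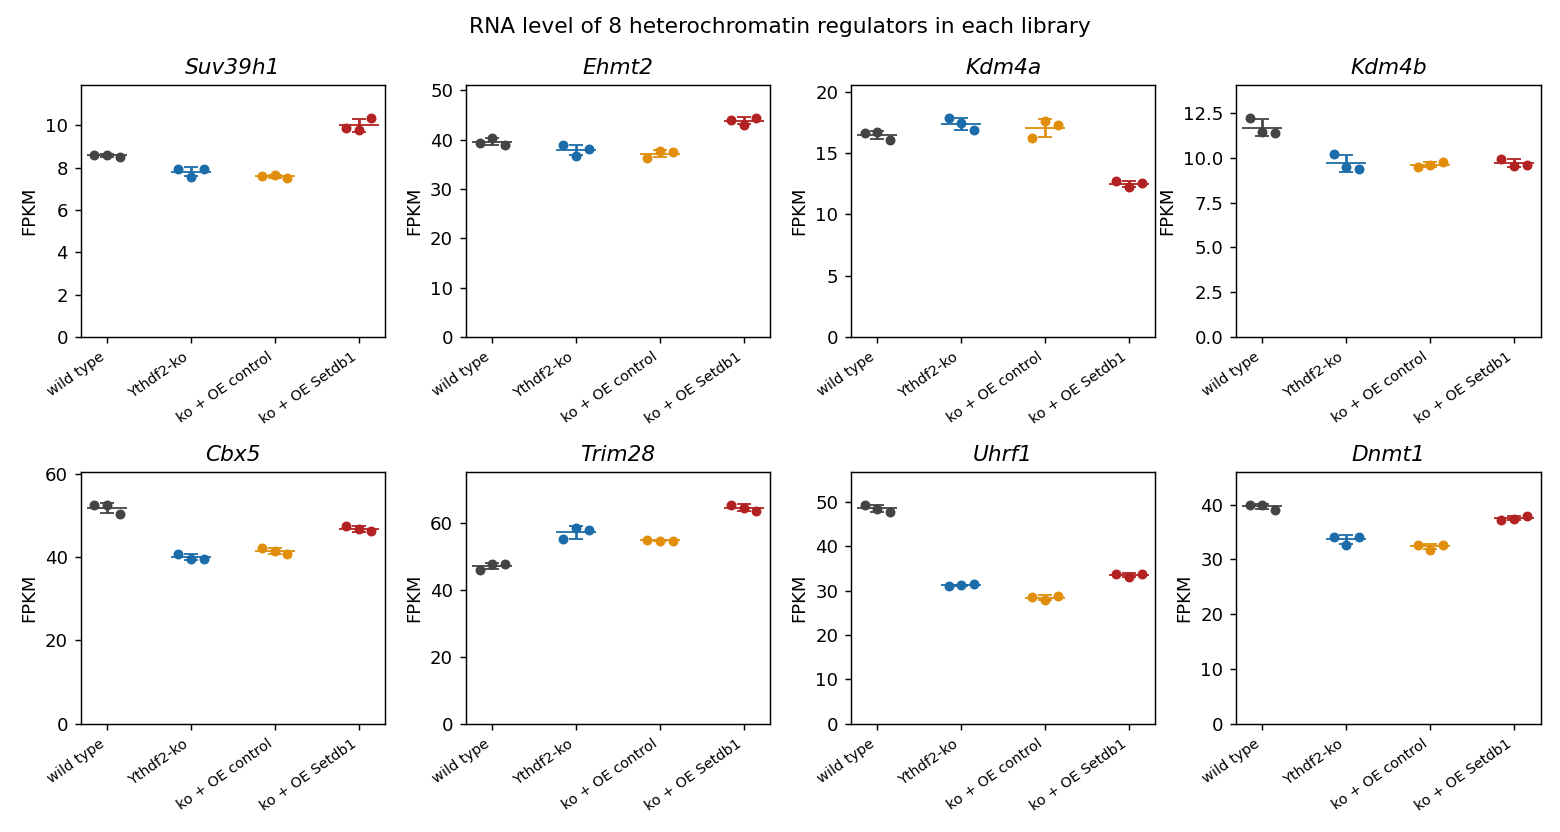
FPKM (vertical axes, from 0) of the 8 regulators in each of 12 libraries, by group (horizontal axes), where points are libraries and bars the mean ± SD of 3. Uhrf1 drops from 48.5 FPKM in wild type to 31.2 in Ythdf2-ko, Trim28 climbs from 47.0 to 57.1, and Kdm4a is lowest with Setdb1 overexpression, at 12.5 FPKM.

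The writer genes stood at different levels and moved little in the knockout. Suv39h1 had the lowest FPKM of the 8 genes in wild type, Ythdf2-ko and the overexpression control, and with Setdb1 overexpression Kdm4b was lower. It read 8.61, 8.62 and 8.52 FPKM in the wild-type libraries and 7.95, 7.57 and 7.95 FPKM in Ythdf2-ko. The knockout libraries lay below all wild-type ones, and the fall of Suv39h1 was -0.12 in log2 units (SE 0.03, adjusted p = 0.0028 in limma), a change of the mean of -8.88%. Without the 4 libraries with blood transcripts the difference was -0.10 and the call was lost (adjusted p = 0.154). Ehmt2, the main dimethyltransferase of euchromatin, read 39.3, 40.4 and 39.0 FPKM in wild type and 38.9, 36.8 and 38.0 FPKM in Ythdf2-ko. These ranges came within a small margin of each other without overlapping, and Ehmt2 fell by 0.06 (SE 0.03, adjusted p = 0.0481). The call was lost in 16 of 22 alternatives, on leaving out wild-type library 1 or 2, Ythdf2-ko library 2 or 3, overexpression control library 2 or 3 or any Setdb1 library among them, with adjusted p of 0.0225 to 0.359 over the 22.

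The demethylase genes did not move together. Kdm4a encodes a demethylase of trimethylated H3K9 and H3K36. It read 16.7, 16.7 and 16.1 FPKM in wild type and 17.9, 17.4 and 16.9 FPKM in Ythdf2-ko. All knockout libraries lay above the wild-type ones, but the difference of 0.07 did not pass (95% interval -0.00 to 0.15, adjusted p = 0.0697), and it passed in 3 of 22 alternatives: with median-of-ratios scaling, without Ythdf2-ko library 3 and without overexpression control library 1 (lowest adjusted p = 0.0371). Kdm4b, its paralog, read 12.3, 11.5 and 11.4 FPKM in wild type and 10.2, 9.49 and 9.37 FPKM in Ythdf2-ko. Every knockout library was under the wild-type range, and Kdm4b fell by 0.25 (SE 0.04, adjusted p = 0.000154). FPKM values do not show how reads shared between close paralogs were assigned.

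The reader and the corepressor moved in opposite directions. Cbx5 read 52.6, 52.3 and 50.3 FPKM in wild type and 40.8, 39.4 and 39.6 FPKM in Ythdf2-ko, with no overlap. It fell by 0.37 (SE 0.02, adjusted p = 2.61e-07), a change of the mean of -22.8%. Trim28 read 45.9, 47.6 and 47.6 FPKM in wild type and 55, 58.4 and 57.8 FPKM in Ythdf2-ko, with every knockout library higher. It rose by 0.27 (SE 0.02, adjusted p = 3.29e-06), a change of the mean of 21.4%. Within each library, Trim28 stood at 0.91 ± 0.0363 times the FPKM of Cbx5 in wild type and at 1.43 ± 0.0713 times in Ythdf2-ko (SD, n = 3 each), so that the order of both genes turned between the lines.

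Uhrf1 had the largest difference of the 8 members, and ranked 171 of the 2063 tested genes by the size of its difference. It read 49.4, 48.3 and 47.7 FPKM in wild type and 31.0, 31.1 and 31.4 FPKM in Ythdf2-ko. The groups lay far apart relative to the spread within them, and Uhrf1 fell by 0.62 (SE 0.02, adjusted p = 1.89e-09), a change of the mean of -35.7%. Dnmt1 read 39.9, 40.0 and 39.1 FPKM in wild type and 34.2, 32.7 and 34.1 FPKM in Ythdf2-ko. Its libraries did not overlap either, and it fell by 0.23 (SE 0.02, adjusted p = 4.47e-06). The ratio of Uhrf1 to Dnmt1 within a library went from 1.22 ± 0.0147 to 0.927 ± 0.0229. Without the libraries with blood transcripts, which left 1 library in each of these groups, 1127 of the 2063 tested genes and 5 of the 8 members were called: Uhrf1 (-0.64), Cbx5 (-0.40), Kdm4b (-0.35) and Dnmt1 (-0.22) downward and Trim28 (0.33) upward.

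In the overexpression control against Ythdf2-ko, which shows what the control construct alone goes along with, the 8 differences were at most 0.13 in size on the log2 scale. Uhrf1 was the 1 member of 8 that changed, where 8.68% of tested genes did, 5.04% downward and 3.64% upward. The libraries of both groups did not overlap for 2 members, against 30% of tested genes. It read 28.6, 27.8 and 28.8 FPKM in the control, below all 3 Ythdf2-ko libraries, and fell by 0.13 (SE 0.02, adjusted p = 0.003). Without the libraries with blood transcripts its difference was -0.14 with adjusted p = 0.111. The other 7 members had differences of -0.06 (Trim28) to 0.05 (Cbx5) and adjusted p of 0.161 to 0.935. Against wild type, the overexpression control gave the same directions as Ythdf2-ko for all 8 members, 7 of them called where 77.5% of tested genes were, with Uhrf1 at -0.75, Cbx5 at -0.31 and Trim28 at 0.21. Both comparisons share the wild-type libraries.

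**Figure D2:**
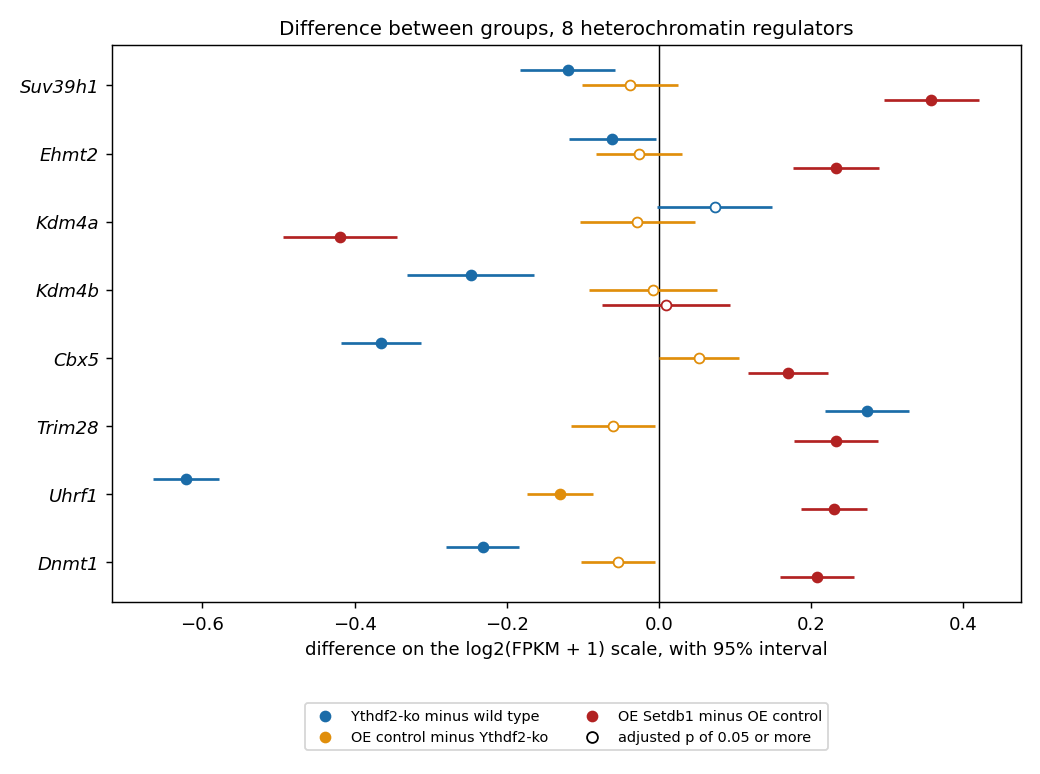
Difference between group means on the log2(FPKM + 1) scale (horizontal axis) for each regulator, with 95% intervals from limma. Filled points have adjusted p under 0.05 over 2063 genes. Uhrf1, Cbx5 and Dnmt1 lie left of 0 in Ythdf2-ko against wild type and right of 0 with Setdb1 overexpression, while Kdm4a lies at -0.42 with Setdb1 overexpression.

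With Setdb1 overexpression against its control, the writer, reader, corepressor and maintenance genes were higher and Kdm4a was lower. The question here was which regulators differed between knockout cells labelled with Setdb1 overexpression and those with the overexpression control. Of the 8 members 6 rose and 1 fell, where 67.9% of tested genes changed, 36.1% upward and 31.8% downward. For 7 members the groups did not overlap, as for 73% of tested genes. The median difference was 0.22 over the members and 0.02 over all tested genes. Regardless of direction, the median size was 0.23 over the members and 0.20 over all tested genes. Leaving out the libraries with blood transcripts, which are in neither group, left the same 6 and 1. Of the 6 members that had fallen in Ythdf2-ko, 5 rose here. Among all tested genes, 275 of the 815 that fell in Ythdf2-ko rose here, which was 33.7% of those 815 and 37.0% of the 744 that rose. Among the 5 members, Suv39h1 and Ehmt2 had small differences in Ythdf2-ko, of -0.12 and -0.06. Without the libraries with blood transcripts, which left 1 library in each group, these were -0.10 and -0.05. The Ehmt2 fall was called in 6 of 22 alternatives. Ythdf2-ko against wild type and Setdb1 against the control share no library. The members were chosen with earlier results of these data known, so these counts are a description.

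Suv39h1 showed the largest rise of the 8. It read 7.61, 7.65 and 7.52 FPKM in the control and 9.90, 9.78 and 10.4 FPKM with Setdb1 overexpression. Every Setdb1 library was above every other library of the series for this gene, and Suv39h1 rose by 0.36 (SE 0.03, adjusted p = 1.87e-06), a change of the mean of 31.9%. Ehmt2 read 36.3, 37.8 and 37.5 FPKM in the control and 44.1, 43.1 and 44.5 FPKM with Setdb1. It rose by 0.23 (SE 0.03, adjusted p = 2.15e-05) and was likewise highest in the Setdb1 libraries.

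Kdm4a fell and Kdm4b did not pass. Kdm4a read 16.2, 17.7 and 17.3 FPKM in the control and 12.7, 12.2 and 12.6 FPKM with Setdb1, below all 9 other libraries. It fell by 0.42 (SE 0.03, adjusted p = 2.21e-06), a change of the mean of -26.7%. Kdm4b read 9.50, 9.62 and 9.79 FPKM in the control and 9.96, 9.54 and 9.62 FPKM with Setdb1. These ranges overlapped, and the difference of 0.01 had a 95% interval of -0.07 to 0.09 (adjusted p = 0.831). The Kdm4a to Kdm4b ratio within a library was 1.77 ± 0.0634 in the control and 1.29 ± 0.017 with Setdb1.

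**Figure D3:**
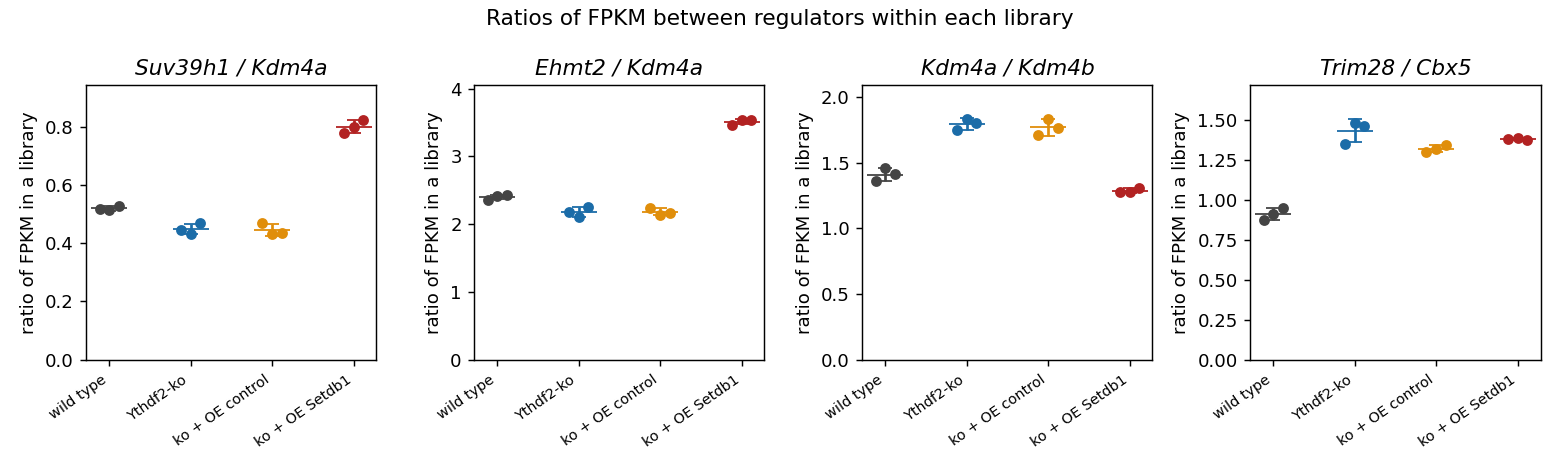
Ratio of the FPKM of 2 regulators within each library (vertical axes, from 0) by group, where points are libraries and bars the mean ± SD of 3. Suv39h1 to Kdm4a goes from 0.446 in the overexpression control to 0.801 with Setdb1 overexpression, and Trim28 to Cbx5 goes from 0.91 in wild type to 1.43 in Ythdf2-ko.

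As the ratios plotted by library show, both writer genes moved apart from Kdm4a. Suv39h1 stood at 0.52 ± 0.00778 times the FPKM of Kdm4a in wild type, 0.449 ± 0.0185 in Ythdf2-ko, 0.446 ± 0.0202 in the control and 0.801 ± 0.0226 with Setdb1 (SD, n = 3 each). Ehmt2 stood at 2.40 ± 0.0344, 2.18 ± 0.0693, 2.18 ± 0.0491 and 3.51 ± 0.0369 times the FPKM of Kdm4a in the same order of groups. A ratio within a library does not depend on how that library was scaled. These ratios rest on the same values as the differences above, with Kdm4a the only member that fell with Setdb1, and add no separate support.

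The remaining members rose by similar amounts with Setdb1. Cbx5 read 42.2, 41.5 and 40.7 FPKM in the control and 47.5, 46.6 and 46.1 FPKM with Setdb1, a rise of 0.17 (SE 0.02, adjusted p = 0.000112). Trim28, the partner through which SETDB1 reaches many of its targets, read 54.8, 54.6 and 54.6 FPKM in the control and 65.4, 64.5 and 63.4 FPKM with Setdb1. The groups did not overlap, and Trim28 rose by 0.23 (SE 0.02, adjusted p = 1.66e-05). Uhrf1 read 33.7, 33.0 and 33.8 FPKM with Setdb1 and rose by 0.23 from the control (SE 0.02, adjusted p = 3.23e-06). Dnmt1 went from 32.6, 31.8 and 32.7 FPKM to 37.2, 37.4 and 38.0 FPKM and rose by 0.21 (SE 0.02, adjusted p = 1.53e-05). No library of one group overlapped the other for Uhrf1 or Dnmt1.

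Set against wild type, cells with Setdb1 overexpression still differed at all 8 members, 3 higher and 5 lower, where 86.1% of tested genes changed, 40.8% upward and 45.3% downward. None of the 8 had overlapping groups, as for 86.5% of tested genes. Uhrf1 remained farthest below, at 69.1 ± 0.882% of its wild-type mean (difference -0.52, adjusted p = 3.02e-09), compared with 64.3 ± 0.369% in Ythdf2-ko and 58.6 ± 1.02% in the control. Dnmt1 was at 94.6 ± 0.978% of wild type with Setdb1 (difference -0.08, adjusted p = 0.00639), after 84.8 ± 2.07% in Ythdf2-ko. This Dnmt1 call was lost under quantile normalization (difference -0.02, adjusted p = 0.433). Cbx5 was at 90.4 ± 1.37% of wild type (-0.14, adjusted p = 0.000211) and Kdm4b at 82.9 ± 1.91% (-0.25, adjusted p = 0.000127). Suv39h1, Ehmt2 and Trim28 were above wild type, at 117 ± 3.56%, 111 ± 1.8% and 137 ± 2.13%, and Kdm4a was below it at 75.8 ± 1.59%.

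In the reported fit, the order of the 4 groups therefore took several forms. As given above, some calls behind these orders were lost in alternatives. They were Uhrf1 in the control against Ythdf2-ko, Suv39h1 and Ehmt2 in Ythdf2-ko, and Dnmt1 with Setdb1 against wild type. Uhrf1 was highest in wild type, then with Setdb1, then in Ythdf2-ko and then in the control, and each neighbouring pair differed past the threshold. Dnmt1 had the same order, but its Ythdf2-ko and control groups did not differ past the threshold. Cbx5 was also highest in wild type and second with Setdb1, and Suv39h1 and Ehmt2 were highest with Setdb1 and second in wild type, with the other pair of groups not differing past the threshold in either case. Trim28 was lowest in wild type and highest with Setdb1. Kdm4a was lowest with Setdb1 and its other 3 groups did not differ past the threshold, although Ythdf2-ko and wild type did not overlap. Kdm4b was highest in wild type, and its other 3 groups did not differ past the threshold. For groups that do not overlap, the two-sided exact permutation test of 3 libraries against 3 gives p = 0.1, the smallest it can give.

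Of the other genes in the fixed lists of H3K9 methyltransferases, demethylases, readers and corepressors and DNA methylation, 12 were in the table and 11 were tested. The lists held 70 names beside the members, these 12 and some synonyms included, and those without a value were not analysed here. In Ythdf2-ko, 7 of the 11 fell and the other 4 did not pass, where 77.3% of all tested genes changed, 39.5% downward. The median of the 11 was -0.22. Hells, a chromatin remodeller that aids DNA methylation, went from 22.1 ± 0.843 to 14.6 ± 0.184 FPKM (-0.57, adjusted p = 4.86e-08). Chaf1a, the large subunit of the chromatin assembly factor CAF-1, went from 20.6 ± 0.124 to 14.8 ± 0.777 FPKM (-0.45). Smchd1, which acts in X-chromosome silencing, went from 5.73 ± 0.128 to 4.19 ± 0.061 FPKM (-0.37), and Uhrf2, the paralog of Uhrf1, fell by 0.32. The demethylase genes Kdm7a, Phf2 and Jmjd1c fell by 0.27, 0.22 and 0.20.

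With Setdb1 overexpression, the median of these 11 genes was -0.05. Of them 2 rose and 5 fell, where 36.1% of all tested genes rose and 31.8% fell. Atrx, which encodes a remodeller that deposits histone H3.3 in heterochromatin, rose by 0.43 (SE 0.10), and its libraries read 4.58, 4.84 and 3.54 FPKM in the control and 5.30, 6.56 and 6.62 FPKM with Setdb1. Chaf1a rose by 0.30, while Chaf1b, the middle subunit of the same complex, fell by 0.28 from 25.0 ± 0.681 to 20.4 ± 0.758 FPKM. The demethylase genes Kdm7a and Jmjd1c fell by 0.30 and 0.12. Of 5 tested demethylase genes, Kdm4a included, 3 fell, where 31.8% of all tested genes did. The other 2, Kdm4b and Phf2, did not pass. Tet3, which encodes an oxidase of 5-methylcytosine, fell by 0.29, and Uhrf2 fell by 0.19 (adjusted p = 0.00822 in limma). Hells did not pass, at -0.05 (adjusted p = 0.151). Dnmt3a, a de novo DNA methyltransferase gene, was uneven in wild type, at 4.64, 1.94 and 4.42 FPKM, and was not called in either comparison. In the control against Ythdf2-ko none of the 11 passed in limma, where 8.68% of all tested genes did, and 1 had an unadjusted p under 0.05.

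**Figure D4:**
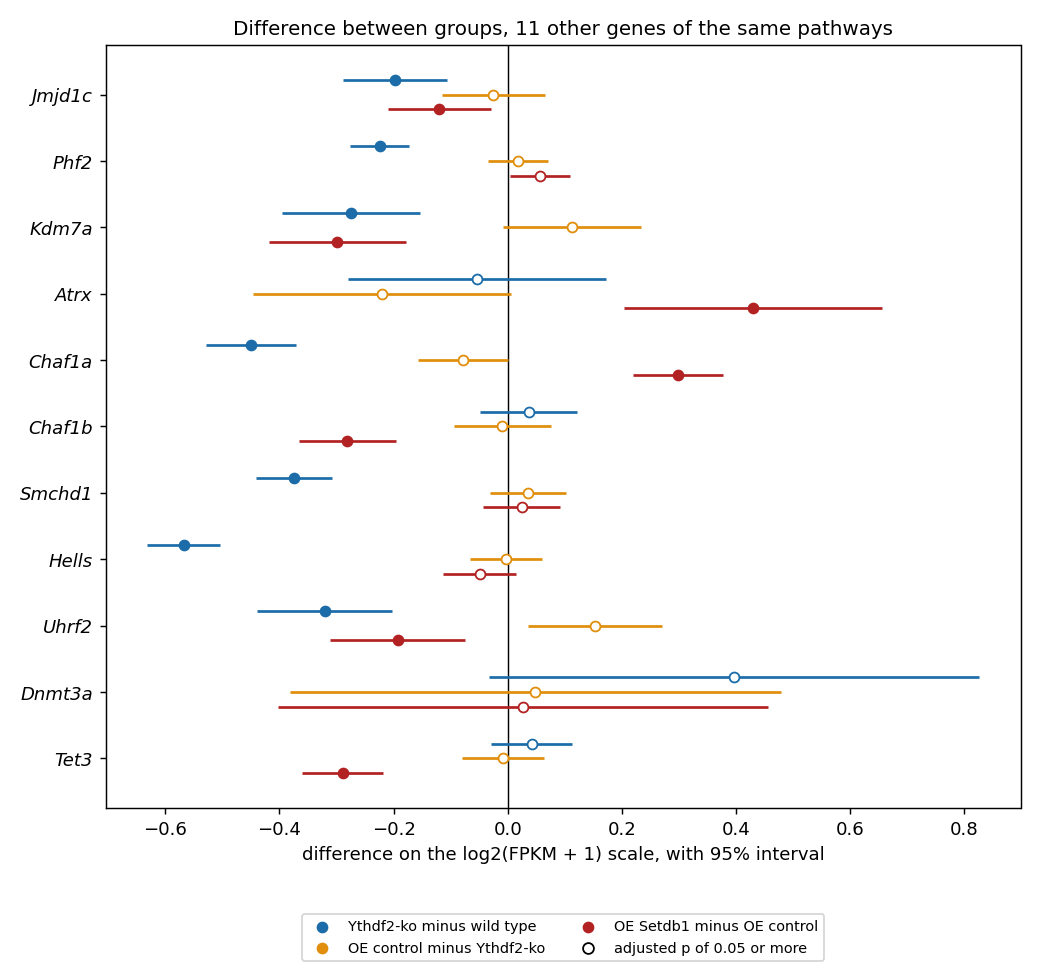
Difference between group means on the log2(FPKM + 1) scale with 95% intervals (horizontal axis) for the 11 other tested genes of the same lists. Filled points have adjusted p under 0.05. Hells and Chaf1a lie farthest left in Ythdf2-ko against wild type, at -0.57 and -0.45, and with Setdb1 overexpression Chaf1a and Chaf1b lie on opposite sides of 0.

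Lists of other histone marks were read beside these. Of all tested genes, 37.8% rose and 39.5% fell in Ythdf2-ko. With Setdb1 against the control 36.1% rose and 31.8% fell. Of 8 tested Polycomb genes, 2 rose and 2 fell in Ythdf2-ko, and 6 fell with Setdb1 overexpression. Cbx6, a chromodomain protein gene of Polycomb repressive complex 1, was higher with Setdb1 overexpression than in wild type by 0.66 (SE 0.17), at 23.9 against 14.3 FPKM. Its Setdb1 libraries were uneven, at 27.7, 16.2 and 27.8 FPKM. Against the control, Cbx6 overlapped and was not called (0.32, adjusted p = 0.128 in limma). Of 6 tested genes of H3K4 and H3K36 methylation, 3 rose and 2 fell in Ythdf2-ko, and 2 rose and 2 fell with Setdb1. Against wild type, cells with Setdb1 had a higher level of the methyltransferase gene Setd1a (0.35) and a lower level of the demethylase gene Kdm5a (-0.32).

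Genes of cell division moved with several members. Their counts stand beside shares of all tested genes of 39.5% down and 37.8% up in Ythdf2-ko. With Setdb1 against the control these shares were 36.1% up and 31.8% down. Of 18 tested mitosis genes, 16 fell and 1 rose in Ythdf2-ko, and 14 rose and 1 fell with Setdb1. Their summed level was 409 to 412 FPKM in wild type, 301 to 309 in Ythdf2-ko, 292 to 296 in the control and 353 to 356 with Setdb1. Relative to wild type this was 74.4 ± 1.04% in Ythdf2-ko, 71.6 ± 0.613% in the control and 86.4 ± 0.348% with Setdb1. Of 22 tested genes of DNA replication, 19 fell and 1 rose in Ythdf2-ko, and 7 rose and 7 fell with Setdb1. Their sum was 731 to 737 FPKM in wild type, 593 to 599 in Ythdf2-ko and 596 to 598 with Setdb1. Over Ythdf2-ko against wild type, the control against Ythdf2-ko, and Setdb1 against the control and against wild type, the mitosis genes with the largest differences were Ndc80 (-0.90, Setdb1 against wild type) and Cdk1 (-0.70, Ythdf2-ko). The replication genes were Mcm3 (-0.77) and Cdt1 (-0.71), both with Setdb1 against wild type. Unlike most mitosis genes, Ndc80 was lower with Setdb1 than in the control (-0.29, adjusted p = 0.00033 in limma), while Cdk1 was higher (0.26). Uhrf1, Dnmt1, Cbx5 and Suv39h1 were lower in Ythdf2-ko than in wild type and higher with Setdb1 than in the control, as the mitosis sum was. Against wild type, Suv39h1 was higher with Setdb1, at 117%, while the mitosis sum was at 86.4%. The part of cell division in their differences was not tested.

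**Figure D5:**
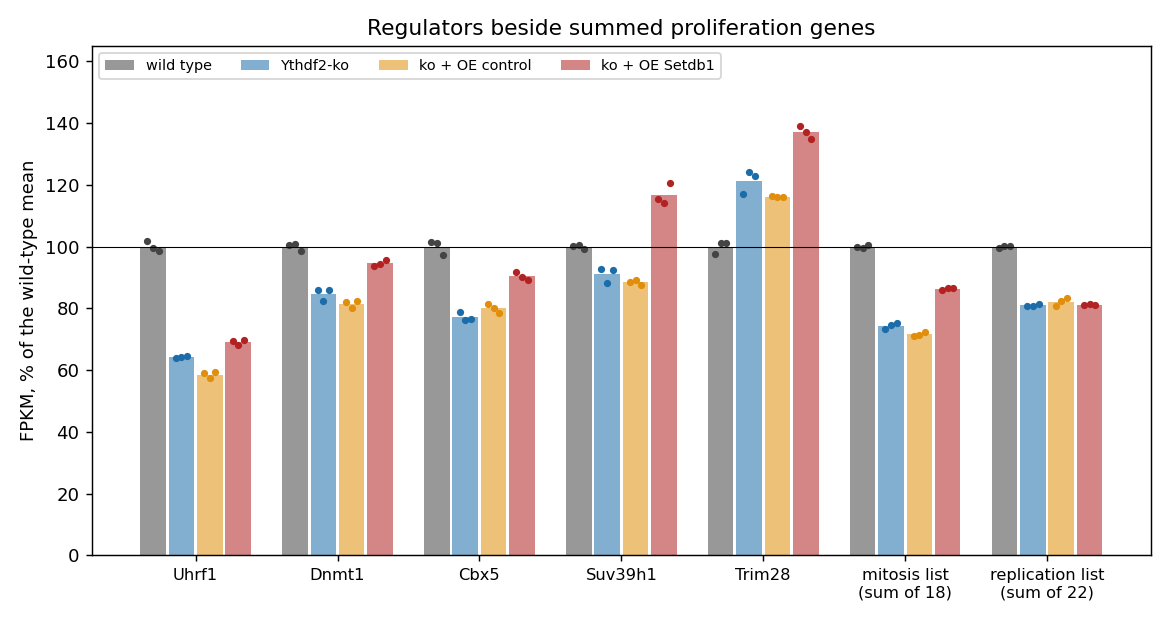
FPKM as a percentage of the wild-type mean (vertical axis, from 0) for 5 regulators and for the summed mitosis and replication lists, by group, where bars are means of 3 libraries and points the libraries. The mitosis sum stands at 74.4% in Ythdf2-ko and 86.4% with Setdb1 overexpression, and the replication sum at 81.0% and 81.2%.

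Markers of other cell types also differed between the lines. Of all tested genes, 39.5% fell in Ythdf2-ko, and 40.8% rose and 45.3% fell with Setdb1 against wild type. Against the control 36.1% rose and 31.8% fell. The 6 epithelial markers in the table summed to 842 to 876 FPKM in wild type and 335 to 400 FPKM in the knockout groups, and all 5 that were tested fell in Ythdf2-ko, Krt8 by 1.72. With Setdb1 against wild type 4 fell, Elf3 by 1.43, and Krt6a rose by 0.22. Against the control, 2 of the 5 rose with Setdb1, Krt6a (1.42) and Krt8 (0.54), and 2 fell, Krt19 (-0.23) among them. The epithelial sum was 384 to 400 FPKM in the control and 335 to 348 FPKM with Setdb1. Krt19 made up most of the epithelial sum, with a mean of 692 FPKM in wild type. The 6 fibroblast markers summed to 328 to 349 FPKM in wild type and 459 to 497 FPKM in the knockout groups, and of 4 tested, 3 rose and 1 fell with Setdb1 against wild type. Thbs1 and Fstl1 were higher by 1.45 and 0.996, and Pdgfra was lower (-0.36). Fn1 made up most of the fibroblast sum, with a mean of 228 FPKM in wild type. The 3 markers of testis somatic cells summed to 152 to 154 FPKM in wild type and 71.6 to 90.8 FPKM in the knockout groups, with Clu (-1.06) and Sox9 (-0.999) lower with Setdb1 than in wild type, while the third, Gata4, rose in Ythdf2-ko (0.30). Clu made up most of that sum, with a mean of 145 FPKM in wild type. Of the 5 spermatogonial markers, 4 fell and 1 rose with Setdb1 against wild type: Etv5 (-0.80) and Cd9 (-0.79) had the largest falls, Foxo1 rose (0.08), and Cd9 alone read 84.9 FPKM in wild type. Of the blood markers, Hbb-bs and Hba-a2 (both haemoglobin) differed by -4.92 and -4.47 between the Setdb1 and wild-type groups, and wild-type libraries 2 and 3 held the blood transcripts given above. The part of these genes in the members' differences was not tested.

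By pattern over the 12 libraries, measured as the root mean square difference between profiles centred on their own means, the tested genes nearest to Uhrf1 were Cdca3 (0.05) and Gtf2f1 (0.05). Nearest to Dnmt1 were Actl6a (0.03) and Ccnf (0.04), nearest to Cbx5 were Dkc1 (0.03) and Rad21 (0.04), and nearest to Trim28 were Cfl1 (0.03) and Pdia3 (0.04). Suv39h1 was nearest to Hnrnpd (0.03) and Ccnd1 (0.03), and Ehmt2 to Smarcc1 (0.02) and Senp1 (0.03). Kdm4a was nearest to Crebl2 (0.04) and Gpx4 (0.04), and Kdm4b to Mybbp1a (0.03) and Smad3 (0.04). Among the members themselves, Suv39h1 and Ehmt2 (0.05) and Cbx5 and Dnmt1 (0.06) were the nearest pairs, and Kdm4a was 0.20 from its nearest member, Kdm4b. For scale, the root mean square of a profile about its own mean was 0.14 for Suv39h1 and 0.09 for Ehmt2. It was 0.15 for Cbx5, 0.12 for Dnmt1 and 0.18 for Kdm4a, so Kdm4a was near no other member.

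The m6A mark bound by YTHDF2 lies in a short sequence context, of which GGACT is a common form. In the longest APPRIS principal transcript of GENCODE M21, GGACT occurred 7 times in Suv39h1 (2.25 per kilobase), 8 times in Kdm4b (1.75), 6 times in Ehmt2 (1.49) and 5 times in Uhrf1 (1.39). It occurred 2 times in Trim28 (0.616 per kilobase), 5 times in Cbx5 (0.568), 3 times in Dnmt1 (0.559) and 1 time in Kdm4a (0.305). The median over 2059 tested genes was 1.06 per kilobase, so 4 members lay above it and 4 below. Whether these sites carry m6A was not measured here.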

How the data were processed

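RNA-seq of 12 GC1 libraries was read from 1 table. Its values are FPKM as deposited by the authors, beside the authors' p-value and q-value for a comparison that the headers do not name. In the authors' deposited table the highest p-value is 0.05 and 368 q-values exceed 0.05. The submitters' processing notes name cutadapt, HISAT2, StringTie, edgeR and DESeq2, without roles. Genome build, annotation and strand use: not given in the sources used here.

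From the deposited FPKM, log2(FPKM + 1) was computed for the 2063 of 2281 genes with at least 1 FPKM in 3 or more libraries, with no rescaling. All 4 groups were fitted together in limma 3.58.1 (R 4.3.3) with a trended empirical Bayes variance, and p-values were adjusted over all tested genes by the Benjamini-Hochberg method at 0.05. Sums over the table were 75955 to 81924 FPKM per library. Depth is unknown, so no counting interval is given. Alternatives were another pseudocount, other filters, median-of-ratios scaling, quantile normalization, no variance trend, a replicate block, a blood term, the compared groups alone and leaving out libraries.

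The members and gene lists were chosen with earlier results of these data known. Named were all 8 members, called genes of the 4 related lists, the 2 called genes with the largest difference of each other list, and for each member the 2 nearest in pattern. A gene that this rule names is not reported here. The fit was tested on simulated data.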

Additional observations from a re-analysis of the deposited data

How the results depend on the processing

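Over the members' differences in 4 comparisons and all alternatives, 683 values kept their direction and their side of the threshold, 19 lost a call, 3 gained one and 7 changed sign. These counts also include, for each member, the overexpression control in place of Ythdf2-ko against wild type, which is another comparison and not a refit. None of the 7 had passed: for the overexpression control against Ythdf2-ko they were Kdm4a at 0.0113 without the 4 libraries with blood transcripts and 0.00493 without control library 1, and Kdm4b at 0.000821 with median-of-ratios scaling, 0.0361 without those 4 libraries, 0.0276 without Ythdf2-ko library 1 and 0.00123 without control library 1. With Setdb1 against the control it was Kdm4b, at -0.00741 without Setdb1 library 1. Leave-one-out values ran from -0.0522 to 0.00493 for Kdm4a and from -0.0302 to 0.0276 for Kdm4b in the control against Ythdf2-ko, and from -0.00741 to 0.0209 for Kdm4b with Setdb1 against the control. The least stable count was that of genes changed in the control against Ythdf2-ko, 179 in the reported fit, 66 with a blood term, 41 without the 4 libraries, 106 with the compared groups alone and 93 to 168 on leaving out each library in turn. Of its calls 41.9% were rises, against 51.1% with median-of-ratios scaling and 52.7% with quantile normalization. In that comparison, leaving out the 4 libraries called 0 of 8 members in limma, and 1 of 11 other genes of the related lists, an alternative chosen after seeing the data. The cause was not tested. Leaving out each library in turn gave 1526 to 1599 changed genes and 6 to 8 members in Ythdf2-ko against wild type, 1305 to 1402 and 7 with Setdb1 against the control, 1706 to 1776 and 8 with Setdb1 against wild type, and 1 member in the control against Ythdf2-ko. Scaling moved the median of all genes by at most 0.05 on the log2 scale. Same-numbered libraries had correlated deviations of -0.70 to 0.413 over 18 pairs, with 1 above 0.1. Both extremes lay between wild type and Ythdf2-ko, where some libraries hold blood transcripts, so the check cannot decide on pairing between those groups. A replicate block gave 1586, 126, 1389 and 1770 changed genes and 6, 1, 7 and 8 members for Ythdf2-ko against wild type, the control against Ythdf2-ko, and Setdb1 against the control and against wild type, and the member it lost was Ehmt2 (adjusted p = 0.0782). Limits are the preselected table, 3 libraries per group, unknown depth, a single knockout line code, and blood transcripts in 4 libraries. Where these were left out, 1 wild-type and 1 Ythdf2-ko library remained, each assumed to vary like the other groups.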
